A study of Mus musculus with 8 samples.

Results

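Purine receptors and nucleotide-degrading enzymes were followed as a set of 9 genes in mouse bone-marrow derived macrophages. The set holds the adenosine receptors Adora2a, Adora2b and Adora3, the ATP-gated channels P2rx4 and P2rx7, the nucleotide receptors P2ry6 and P2ry14, the related receptor Gpr34 and the ectonucleotidase Entpd1. They were taken by name from the deposited expression table, where all 9 were found among 20258 named genes. All 9 varied between libraries and were among the 13615 genes tested. The macrophages came from C57BL/6 mice and were kept for 24 h with bacterial lipopolysaccharide and interferon gamma (LPS plus IFNg, 3 libraries), with interleukin 4 (IL4, 3 libraries) or without a stimulus (2 libraries). LPS plus IFNg is the usual stimulus for classical activation and IL4 for alternative activation, and the unstimulated cells are the control for both. Each library is a 3' end library of polyadenylated RNA. Nothing in the labels ties the libraries of a group to different mice or wells, so the p-values reflect spread among these libraries that may be technical. Cells were stimulated in multiwell plates.

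Cells that are damaged or activated release ATP and other nucleotides, which act as danger signals on P2X channels and P2Y receptors of nearby cells. On the cell surface CD39, the product of Entpd1, cuts ATP and ADP to AMP, and CD73, the product of Nt5e, cuts AMP to adenosine. Adenosine then acts on P1 receptors, of which those encoded by Adora2a and Adora2b raise cyclic AMP and dampen inflammatory output in macrophages.

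Values are log2 expression, quantile normalised by the authors, so a difference of 1 is a doubling. The sequencing depth behind them is unknown. Between 1577 and 3568 of the tested genes were listed at exactly 0 in a library, with 2964 to 2985 in the LPS plus IFNg libraries, 3204 to 3568 in the IL4 libraries and 1577 and 2588 in the unstimulated ones. All 9 macrophage markers searched, Emr1, Csf1r and Cd68 among them, stood above 0 in every library. Of the other markers, the log2 of the summed level of 8 neutrophil genes was 7.65 to 8.23 with LPS plus IFNg, 9.88 to 10.71 with IL4 and 11.05 to 11.21 unstimulated. For 6 fibroblast genes it was 10.23 to 11.21 with LPS plus IFNg, 10.14 to 10.71 with IL4 and 11.20 to 11.61 unstimulated. For 7 dendritic cell genes it was 5.47 to 6.06 with LPS plus IFNg, 5.54 to 6.28 with IL4 and 4.06 to 5.79 unstimulated, with Flt3, Zbtb46 and Siglech at 0 in all 3 LPS plus IFNg libraries. For 7 mast cell and platelet genes it was 7.76 to 8.54 with LPS plus IFNg, 8.82 to 10.36 with IL4 and 9.54 to 9.73 unstimulated, nearly all of it Pf4, while Mcpt4 and Fcer1a were at 0 in every library. For 8 lymphocyte genes it was at most 4.64 with LPS plus IFNg, 5.83 with IL4 and 4.71 unstimulated, and Cd3e and Ncr1 were at 0 in every library. The part of these cells in the results was not tested, and in bulk samples fewer cells of a type and less RNA per cell cannot be told apart.

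Adora2a was higher with LPS plus IFNg than with IL4 or without stimulus. This gene encodes an adenosine receptor that couples to Gs and raises cyclic AMP. It stood at 5.30, 4.40 and 6.11 in the LPS plus IFNg libraries, was listed at 0 in all 3 IL4 libraries, and stood at 0 and 0.26 in the unstimulated ones. The LPS plus IFNg values overlapped with neither other group. Against no stimulus the log2 change with LPS plus IFNg was 5.14 (SE 0.74, n = 3 and 2, limma adjusted p = 0.0071). Against IL4 no fold is given, since that group was listed at 0 throughout, and the limma adjusted p was 0.00266. The IL4 libraries had an SD of 0, so that p-value measures no spread among them. The size of a change from values at or near 0 is uncertain, because the treatment of genes without reads is not known. The 2 unstimulated values and the IL4 zeros did not differ beyond their spread (adjusted p = 1.0).

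The other adenosine receptors showed no such separation. Adora2b, which encodes a low-affinity adenosine receptor that also couples to Gs, had 4.24, 6.19 and 0 in LPS plus IFNg libraries, 4.36, 6.33 and 5.75 in IL4 libraries, and 3.27 and 3.94 in unstimulated libraries. Its IL4 values all lay above the unstimulated ones, with a log2 difference of 1.88, but the 95% interval ran from -2.13 to 5.88 (adjusted p = 0.724). The LPS plus IFNg libraries spread from 0 to 6.19 and overlapped with both other groups. The row named Adora3 had 0, 4.46 and 0 with LPS plus IFNg, 0 in all 3 IL4 libraries, and 0.14 and 3.76 unstimulated. It did not pass in any comparison (adjusted p = 0.543 to 0.936). Its RefSeq accession, NM_001174169, is that of Tmigd3 in the GRCm38.p6 gene table, a gene whose annotation overlaps Adora3, so the row cannot be assigned to the A3 receptor alone. Adora1, which encodes the A1 receptor, was listed at 0 in all 8 libraries.

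P2rx4 and P2rx7 stood above 0 in every library. P2rx4, whose product opens to low ATP and also sits in lysosomes, had 8.06, 7.46 and 7.81 with LPS plus IFNg, 6.89, 7.26 and 8.07 with IL4, and 7.98 and 7.81 unstimulated. The groups overlapped. The 95% interval of the log2 difference from no stimulus was -0.99 to 0.75 for LPS plus IFNg and -1.37 to 0.38 for IL4. Between LPS plus IFNg and IL4 the log2 difference was 0.37 (limma adjusted p = 0.521). With ribosomal protein genes held equal it was 1.84 and passed (0.00836). Under that scaling 4666 of the 13615 tested genes were higher. P2rx7 encodes the channel that needs high ATP and drives potassium efflux ahead of inflammasome activation. It had 6.15, 5.89 and 6.48 with LPS plus IFNg, 7.19, 6.68 and 6.85 with IL4, and 7.91 and 6.92 unstimulated. All LPS plus IFNg values lay below those of both other groups. The log2 change against no stimulus was -1.24 (SE 0.39), with an unadjusted p of 0.014 that did not pass over all genes (limma adjusted p = 0.114). Against IL4 it was -0.73 (SE 0.35, adjusted p = 0.239), and both turned positive with ribosomal protein genes held equal (0.23 and 0.73). P2rx4 and P2rx7 are neighbours on the same chromosome in the reference annotation. Of the other P2X channels, P2rx1, P2rx3, P2rx5 and P2rx6 were at 0 in most libraries and P2rx2 in all 8.

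**Figure D1:**
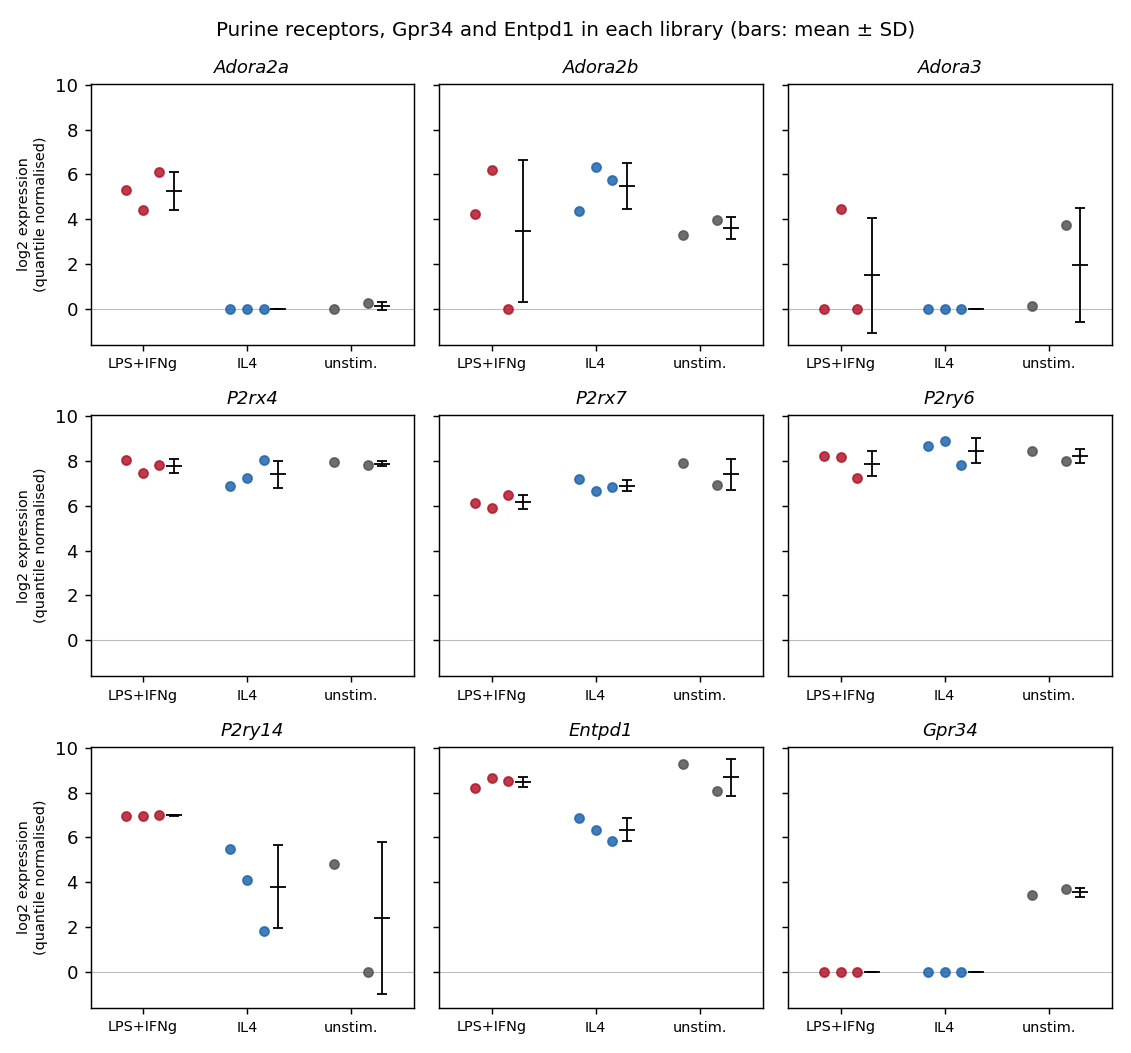
Log2 expression (vertical axis) of the 9 genes in each library, by group (LPS plus IFNg, IL4, unstimulated); each point is a library and the bars are the mean ± SD. Adora2a is above 4 only in the LPS plus IFNg libraries, Entpd1 is lowest in the 3 IL4 libraries, and Gpr34 is above 0 only in the 2 unstimulated libraries.

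The nucleotide receptors differed in how they varied. P2ry6, a Gq-coupled receptor for UDP, had 8.23, 8.17 and 7.23 with LPS plus IFNg, 8.66, 8.91 and 7.84 with IL4, and 8.46 and 8.02 unstimulated. The groups overlapped, and the 95% interval of the log2 difference from no stimulus was -1.36 to 0.64 for LPS plus IFNg and -0.76 to 1.23 for IL4. P2ry14, a Gi-coupled receptor for UDP-glucose, had 6.96, 6.96 and 7.02 in the LPS plus IFNg libraries. It had 5.47, 4.09 and 1.81 in the IL4 libraries, and 4.81 and 0 in the unstimulated ones. All 3 LPS plus IFNg values were above every other library and had an SD of 0.04, against 1.85 for IL4 and 3.40 for the unstimulated libraries. The log2 change with LPS plus IFNg was 4.58 against no stimulus (SE 1.55, adjusted p = 0.145) and 3.19 against IL4 (SE 1.38, adjusted p = 0.202), so neither passed. Alternatives changed this. Against no stimulus P2ry14 passed with low-mean genes dropped (the lowest 0.25, adjusted p = 0.0387) and with ribosomal protein genes held equal (0.0182). Against IL4 it passed with only those 2 groups in the fit (0.0427) and with ribosomal protein genes held equal (0.0212). Under that scaling 3893 of the 13615 tested genes were higher against no stimulus and 4666 against IL4. Dropping unstimulated replicate 2 left the control value of 4.81 and gave a change of 2.18 against no stimulus. Dropping replicate 1 left only the control listed at 0, so the resulting 6.98 is the LPS plus IFNg mean itself and not a measured fold. The fitted spread is shared by all groups, and the 95% interval against no stimulus ran from 0.95 to 8.21.

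P2ry14 lies in a gene cluster that also holds Gpr171, P2ry13 and P2ry12. P2ry12 and P2ry13, ADP receptors known from microglia, had 1.73 and 3.26, and 2.22 and 0.79, in the 2 unstimulated libraries. Both were at 0 in all 3 IL4 libraries. With LPS plus IFNg P2ry13 was at 0 and P2ry12 at 1.09, 0 and 0. Their limma adjusted p-values were 0.121 and 0.205 for IL4 and 0.080 and 0.098 for LPS plus IFNg against no stimulus. Med12l, whose annotation spans this cluster on the other strand, was at 0 in 6 of the 8 libraries, at 4.92 in 1 LPS plus IFNg library and at 0.14 in 1 unstimulated library.

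Gpr34, a P2Y-like receptor for lysophosphatidylserine, was listed at 0 in all 6 stimulated libraries, and stood at 3.41 and 3.68 in the unstimulated ones. No fold is given against groups at 0. The limma adjusted p was 0.00282 for LPS plus IFNg and 0.0134 for IL4 against no stimulus, comparisons that share the same 2 control libraries. Both stimulated groups had an SD of 0, so the gene's own spread in these tests came from the 2 unstimulated values alone. The p-values therefore measure no spread among stimulated libraries. The IL4 call was lost when the LPS plus IFNg libraries were kept out of the fit (adjusted p = 0.103). It was also lost with replicate number as a block in the fit (adjusted p = 0.1205). The values are low, and the unstimulated libraries had fewer zeros. There were 141 tested genes with both unstimulated values from 3 to 4, Gpr34 among them. Of these, 3 genes (2.13%) were at 0 in all 6 stimulated libraries. In the 3 LPS plus IFNg libraries 5 (3.55%) were at 0, and in the 3 IL4 libraries 15 (10.6%). Gpr34 itself is in each of these counts. Cask, whose annotation spans Gpr34 on the opposite strand, stood at 4.36 to 6.75 over the 8 libraries and did not pass in any comparison (adjusted p = 0.42 to 0.955). The libraries keep strand, per the labels' protocols, but whether the counting used strand is not stated.

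Entpd1, which encodes CD39, had its lowest values with IL4. It had 8.21, 8.66 and 8.54 in LPS plus IFNg libraries, 6.86, 6.31 and 5.83 in IL4 libraries, and 9.28 and 8.09 in unstimulated libraries. Each IL4 value lay below all 5 others. Entpd1 was higher with LPS plus IFNg than with IL4 by 2.13 on the log2 scale (SE 0.39, 95% interval 1.23 to 3.04, limma adjusted p = 0.0118), and this difference passed at 0.05 under each of the 18 alternative fits. The log2 difference between IL4 and no stimulus was as large, -2.35 (SE 0.43), but missed the threshold (adjusted p = 0.0577). It passed with low-mean genes dropped (adjusted p = 0.0107 and 0.00654 under the 2 filters) and with ribosomal protein genes held equal (0.0453), and under no other alternative. The adjusted p was 0.101 with no intensity trend, 0.179 with only the 2 groups compared and 0.175 without unstimulated replicate 1, where the log2 difference was -1.76. LPS plus IFNg and no stimulus did not differ beyond their spread (log2 difference -0.22, 95% interval -1.23 to 0.79). Of the related genes Entpd4, Entpd5, Entpd6 and Entpd7, whose products act in intracellular compartments or are secreted, none passed in any comparison. Between LPS plus IFNg and IL4 the log2 differences of Entpd4, Entpd5 and Entpd7 were 0.36, 0.76 and -0.19 (limma adjusted p = 0.482 to 0.784). That of Entpd6 was -0.06. Entpd2, Entpd3 and Entpd8, the other family genes whose products sit on the cell surface, were at 0 in all 8 libraries. Nt5e, the next enzyme on the way to adenosine, was at 0, 2.92 and 0 with LPS plus IFNg, 3.28, 0 and 0 with IL4, and 0.16 and 0 unstimulated.

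The promoter sequences of Entpd1 and P2ry14 are shown because Entpd1 was lowest with IL4 and P2ry14 highest with LPS plus IFNg. They are RefSeq windows of 300 bases on GRCm38.p6, from 250 bases before to 50 after an annotated start, while the expression table rests on mm9. For Entpd1 the window chr19:40659520-40659819 (plus strand) has the start that GENCODE gives for the transcript of the table's row, and for P2ry14 the window chr3:59130713-59131012 (minus strand) is the one nearest to that start, 138 bases from it. 3' end reads do not show which start was used. Capitals mark GAGGAA, the core of the motif of the myeloid factor PU.1, or TGACG, a cyclic AMP response element core, on either strand (TTCCTC and CGTCA on the other).
Entpd1: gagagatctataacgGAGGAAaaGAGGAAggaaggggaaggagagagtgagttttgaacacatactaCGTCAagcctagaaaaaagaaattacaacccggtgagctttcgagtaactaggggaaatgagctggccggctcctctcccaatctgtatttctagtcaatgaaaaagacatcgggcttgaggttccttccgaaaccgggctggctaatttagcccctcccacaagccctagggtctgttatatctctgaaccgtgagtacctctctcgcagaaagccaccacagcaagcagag
P2ry14: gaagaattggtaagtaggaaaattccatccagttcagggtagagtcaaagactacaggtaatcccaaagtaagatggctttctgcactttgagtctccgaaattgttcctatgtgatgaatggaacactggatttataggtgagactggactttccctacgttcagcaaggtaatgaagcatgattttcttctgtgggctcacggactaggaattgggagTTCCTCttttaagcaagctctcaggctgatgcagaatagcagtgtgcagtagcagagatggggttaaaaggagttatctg
The Entpd1 window holds GAGGAA at positions -235 and -227 and CGTCA at -183 from the start, and the P2ry14 window holds TTCCTC at -30. GAGGAA was found in 28.3% and TGACG in 20.8% of 32851 mouse promoter windows of this length. Other motifs searched on both strands included TTC and GAA with 4 bases between them (STAT6 type), a pair of GAAA with 2 bases between them (interferon-stimulated response element type) and the hypoxia motif ACGTG. None of these was in the 2 windows shown. They occur in 6.95%, 3.44% and 19.6% of all windows. A match is a description of the letters, and no binding was measured.

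Counted over the 9 genes, 1 passed for IL4 against no stimulus (Gpr34, lower), where 1.31% of all tested genes passed, 0.514% as higher and 0.793% as lower. An unadjusted p under 0.05 was reached by 2 members there (12.1% of all tested genes), by 4 for LPS plus IFNg against no stimulus (19.4% of them) and by 2 for LPS plus IFNg against IL4 (25.5%). Groups that did not overlap were found for 4 members in each of these comparisons, against 26.5%, 36.7% and 27.1% of all tested genes. With LPS plus IFNg 2 members passed against no stimulus (Adora2a higher and Gpr34 lower), where 7.97% of all tested genes passed. For LPS plus IFNg against IL4 2 passed (Adora2a and Entpd1, both higher), where 12.9% passed. The median log2 difference over the 9 genes was -0.49, -0.22 and 0.37 in these comparisons, against -0.01, -0.04 and 0.00 over all tested genes. Leaving out any 1 library left the same members past the threshold in each comparison. The first and second comparisons share both control libraries.

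**Figure D2:**
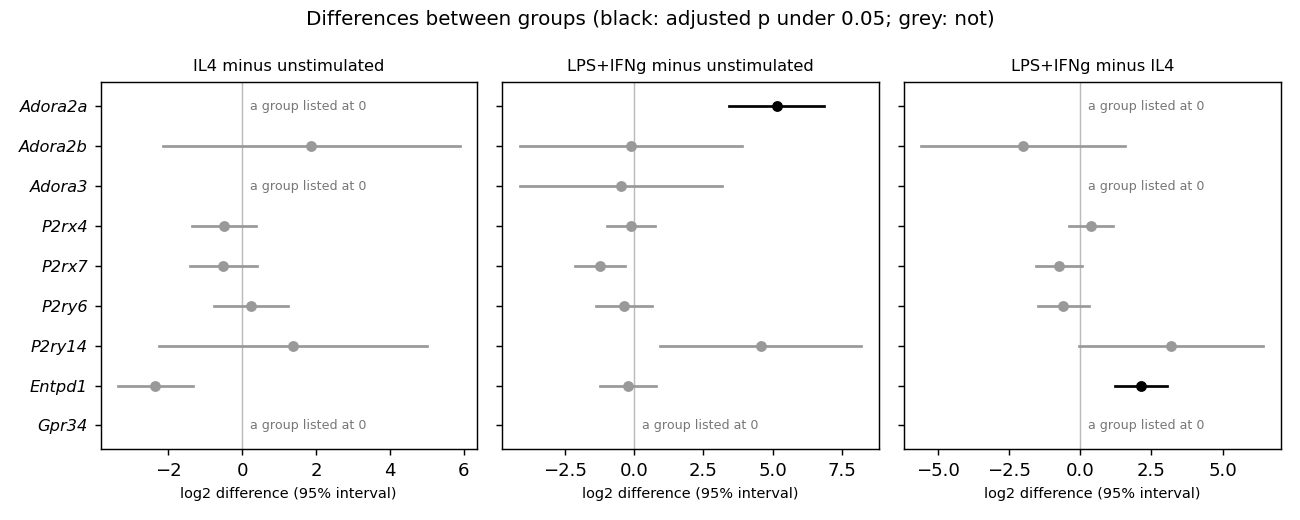
Log2 difference (horizontal axis, with 95% interval) of the 9 genes for IL4 minus unstimulated, LPS plus IFNg minus unstimulated and LPS plus IFNg minus IL4; rows in which a group was listed at 0 throughout carry no estimate. Black marks an adjusted p under 0.05, which among the drawn estimates holds for Adora2a (5.14) against no stimulus and for Entpd1 (2.13) against IL4.

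The other genes of nucleotide release, breakdown, uptake and signalling were taken from lists of 82 genes, of which 68 varied between libraries and were tested. With LPS plus IFNg against no stimulus 8 of the 68 rose and none fell (3.72% of all tested genes rose and 4.25% fell). An unadjusted p under 0.05 was reached by 19 of the 68 (19.4% of all tested genes). Against IL4 13 were higher and 2 lower with LPS plus IFNg (5.91% and 6.96% of all tested genes). With IL4 against no stimulus none of the 68 passed in limma, where 1.31% of all tested genes passed. An unadjusted p under 0.05 was reached by 10 of the 68 (12.1% of all tested genes). The median log2 difference over the 68 genes was 0.32 for LPS plus IFNg against no stimulus, 0.40 against IL4 and -0.02 for IL4 against no stimulus. The balance of calls over all genes depends on the scaling. For LPS plus IFNg against no stimulus it was 506 higher and 579 lower, but 1162 and 288 with housekeeping genes held equal and 3893 and 218 with ribosomal protein genes held equal. Against IL4 it was 804 higher and 948 lower, but 1435 and 508, and 4666 and 293. For IL4 against no stimulus it was 70 and 108, but 90 and 75 with housekeeping genes held equal. The housekeeping genes themselves varied. Of the 11, 7 had all LPS plus IFNg values below the unstimulated ones and 7 had them below the IL4 ones. Groups did not overlap, in either direction, for 36.7% and 27.1% of all tested genes. Of the 11, 1 passed as lower against no stimulus and 3 against IL4 (4.25% and 6.96% of all tested genes).

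The list of ectoenzymes had 14 tested genes. It includes Entpd4, Entpd5, Entpd6 and Entpd7, whose products act in intracellular compartments or are secreted. Of the 14, 4 were higher with LPS plus IFNg than with IL4 (Entpd1, Enpp4, Cd38 and Bst1) and none was lower. Over all tested genes 5.91% were higher. Against no stimulus 2 were higher (Enpp4 and Bst1) and none lower, where 3.72% of all tested genes were higher. Bst1, which encodes CD157, an enzyme that uses NAD, averaged 9.35 ± 0.26 (SD, n = 3) with LPS plus IFNg, 5.14 ± 0.38 (n = 3) with IL4 and 4.57 ± 0.72 (n = 2) unstimulated. Its log2 change was 4.78 against no stimulus (SE 0.42, adjusted p = 0.0014) and 4.21 against IL4 (SE 0.37, adjusted p = 0.000692). Cd38, its neighbour in the genome and the main NAD-consuming surface enzyme of activated macrophages, had 9.93, 9.10 and 9.69 with LPS plus IFNg, 4.67, 0 and 0 with IL4, and 3.90 and 5.08 unstimulated. It passed against IL4 (log2 difference 8.01, SE 1.25, adjusted p = 0.00656) and not against no stimulus (5.08, SE 1.40, adjusted p = 0.0783). Its IL4 values include listed zeros, so the size of the difference from IL4 is uncertain. Enpp4, whose product cuts diadenosine triphosphate, had 6.86, 7.29 and 7.16 with LPS plus IFNg, 0, 0 and 2.26 with IL4, and 3.16 and 0 unstimulated. It passed against both (adjusted p = 0.0365 against no stimulus, where the call was lost without 5 of the 8 libraries in turn, up to 0.163, and 0.00967 against IL4). Enpp1, which makes AMP from ATP, did not pass (log2 difference -2.53 between LPS plus IFNg and IL4, adjusted p = 0.219).

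**Figure D3:**
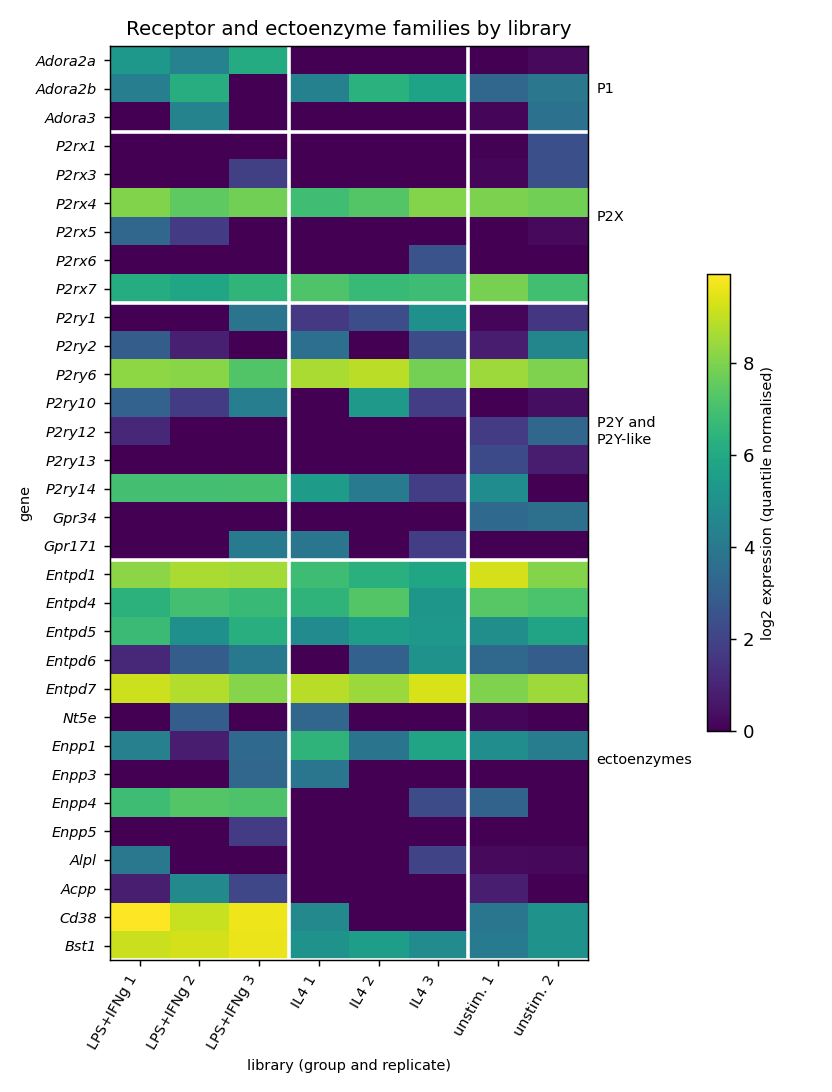
Log2 expression (colour, with dark at 0) of the tested adenosine receptors (P1), P2X channels, P2Y and P2Y-like receptors and nucleotide-degrading ectoenzymes (rows) in each library (columns, LPS plus IFNg, IL4, then unstimulated). The ectoenzyme rows include Entpd4, Entpd5, Entpd6 and Entpd7, whose products act in intracellular compartments or are secreted. P2rx4, P2rx7, P2ry6, Entpd1 and Entpd7 are among the genes above 0 in every library. Cd38 and Bst1 are brightest in the 3 LPS plus IFNg libraries.

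In the steps after adenosine, purine nucleoside phosphorylase Pnp, which cuts inosine and guanosine to their bases, averaged 11.22 ± 0.17 (SD, n = 3) with LPS plus IFNg, 7.76 ± 0.20 (n = 3) with IL4 and 8.50 ± 0.37 (n = 2) unstimulated. Its log2 change was 2.73 against no stimulus (SE 0.23, adjusted p = 0.00132) and 3.47 against IL4 (SE 0.20, adjusted p = 0.000169). Pnp2, a near copy of Pnp, followed with 3.52 and 4.91 (adjusted p = 0.0288 and 0.00335); reads of these copies may be split between them, and the first call was lost without 5 of the 8 libraries in turn, both unstimulated and all 3 LPS plus IFNg ones. Slc28a2, a sodium-driven importer of purine nucleosides, had 9.68, 9.61 and 9.26 with LPS plus IFNg, 4.28, 6.84 and 3.96 with IL4, and 7.52 and 6.58 unstimulated. It passed against IL4 (log2 difference 4.49, SE 0.73, adjusted p = 0.00779) and not against no stimulus (2.46, adjusted p = 0.138). Nt5c3, a cytosolic nucleotidase that prefers pyrimidines, was higher than with IL4 by 2.29 (SE 0.39, adjusted p = 0.0095). The equilibrative transporter Slc29a1 had a log2 difference of -1.61 from both groups (adjusted p = 0.18 against no stimulus and 0.0983 against IL4). Adenosine deaminase Ada was at 0 in 6 libraries and adenosine kinase Adk in 2, and neither passed in any comparison (adjusted p = 0.504 to 1.0).

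**Figure D4:**
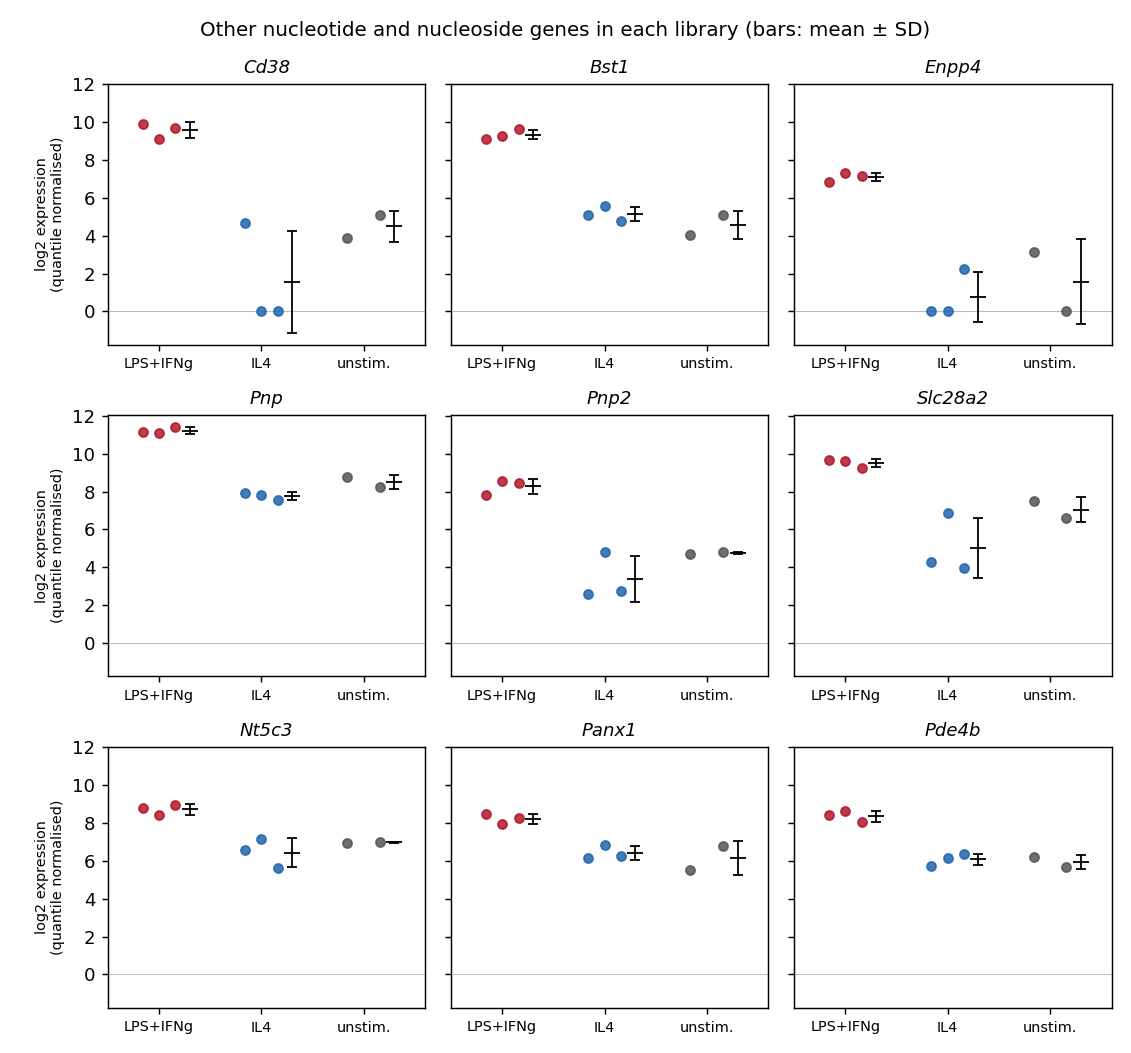
Log2 expression (vertical axis) of 9 other nucleotide and nucleoside genes in each library, by group (LPS plus IFNg, IL4, unstimulated); each point is a library and the bars are the mean ± SD. In all 9 panels the LPS plus IFNg libraries lie above every other library. The 9 were picked from genes that passed as higher with groups that did not overlap, so separation from another group follows from the choice. Of the 68 other pathway genes tested, 20 lay wholly above and 18 wholly below the unstimulated values with LPS plus IFNg. Against IL4 these counts were 18 and 6. Over all tested genes groups did not overlap, in either direction, for 36.7% and 27.1%.

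For each member with a group mean of at least 5, the genes of most similar profile over the 8 libraries were found among genes whose overall mean reached 5. Likeness is the root-mean-square difference in log2 units once each gene's own mean is removed, so a small value means a close profile, and members that vary little find closer ones. Closest to Entpd1 were Rapgef5 (0.30), Neurl3 (0.37) and Sash1 (0.38), each lowest in the 3 IL4 libraries. Closest to Adora2a were H2-Q7 and H2-Q9 (0.55 each), whose rows hold the same values, and Procr (0.57). For P2ry14 they were Acvrl1, Pvr and Larp1b (1.11 to 1.33) and for Adora2b Fgfr1, Slc7a5 and Wdr74 (1.09 to 1.12). For P2rx4 they were Aup1, Mysm1 and Senp7 (0.16 to 0.20), for P2rx7 Laptm5, AF251705 and Zfp90 (0.21 to 0.24) and for P2ry6 Ebp, 4931406C07Rik and Tnfaip8 (0.17 to 0.20).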

How the data were processed

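Bone-marrow derived macrophages of C57BL/6 mice were profiled by 3' end RNA sequencing in 8 libraries. Per the labels' protocols, barcoded oligo-dT primed the cDNA, samples were pooled by Actb qPCR and libraries were amplified by PCR, with no molecular identifiers described. The submitters' processing notes name TopHat and mm9; the counting tool, zeros and strand use were not given in the sources used here. The authors deposited 1 table of log2 values, quantile normalised per its name, with 20259 rows. Libraries were matched to columns by barcode. Depth is unknown, and a difference in total RNA between groups would be hidden by the quantile step.

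1 row without a symbol and 6643 rows with 1 value throughout were left out, leaving 13615 genes. One linear model with group means and an intensity trend covered all libraries in limma 3.58.1 under R 4.3.3 (5 residual and 2.31 prior degrees of freedom). Tests were two-sided, p-values were adjusted by Benjamini and Hochberg over all genes tested, and a gene passed at 0.05. The fit was tested on simulated data. The members and lists were chosen with earlier results of these data known. The rule for names took all 9 members, list genes past the threshold with groups that did not overlap (at most 4 per list and comparison) and the 3 most similar profiles; further pathway genes are named with their values as context and were chosen after their values were seen. Accessions of 142 of the 147 list genes carried the same symbol in the GRCm38.p6 RefSeq table. Promoter windows were in that source for 6 of the 9 members, and the result of 1 motif search is not reported here.

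Alternatives were no trend, only the 2 groups compared, filters removing the lowest 0.25 of genes by mean or genes with a mean under 5, 1 added on the linear scale, values below 0 set to 0, equal means of 11 housekeeping or 80 ribosomal protein genes (listed zeros kept at 0), a replicate block, array weights, an adjusted p of 0.01, and each library left out.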

Additional observations from a re-analysis of the deposited data

How the results depend on the processing

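Adora2a and Entpd1 passed for LPS plus IFNg against IL4 at 0.05 under every alternative fit that tested them (largest adjusted p 0.0169 and 0.047). In that comparison 2 members passed in the fit reported and 4 with ribosomal protein scaling (P2rx4 and P2ry14 added). Under that scaling 4666 of the 13615 tested genes were higher and 293 lower. With only the 2 groups compared 3 members passed (P2ry14 added). Only 1 passed with genes of mean under 5 left out (Adora2a was then not tested) or at an adjusted p of 0.01. For LPS plus IFNg against no stimulus 2 members passed, and 3 with ribosomal protein scaling, where 3893 tested genes were higher and 218 lower. With genes of mean under 5 left out 0 passed, and neither called gene was tested. With the lowest 0.25 of genes dropped, the 2 that passed were Adora2a and P2ry14, and Gpr34 was not tested. For IL4 against no stimulus 1 member passed, and 2 with ribosomal protein scaling, where 55 tested genes were higher and 82 lower. With only the 2 groups compared or at 0.01, 0 passed. Under both filters the 1 that passed was Entpd1, and Gpr34 was not tested. With the replicate block 0 members passed for IL4 and 1 for LPS plus IFNg against no stimulus; the calls lost were Gpr34 with IL4 (adjusted p 0.121) and Adora2a with LPS plus IFNg (0.0508). Deviations of same-numbered libraries from their group means correlated at -0.079 to 0.072 across 7283 genes, so no strong shift was shared by replicate number. With 2 or 3 libraries per group this cannot exclude a pairing, and the labels do not state one.

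Housekeeping scaling shifted the median of genes with a mean of at least 5 by 0.18 for IL4 and 0.71 for LPS plus IFNg against no stimulus and by 0.54 between the stimuli; ribosomal protein scaling shifted it by 0, 1.47 and 1.47. Directions that turned belong to genes not past the threshold. For LPS plus IFNg against no stimulus, housekeeping scaling gave 0.47 for Adora2b, 0.59 for P2rx4, 0.35 for P2ry6 and 0.50 for Entpd1, and ribosomal protein scaling gave 1.06, 1.35, 1.11 and 1.25, with 0.39 for Adora3 and 0.23 for P2rx7. Adora2b also turned with damped low values (0.12), array weights (0.16) and the block (0.68). Between the stimuli, ribosomal protein scaling turned P2rx7 (0.73) and P2ry6 (0.87). For IL4 against no stimulus the sign for Adora2a carries no information: listed zeros were kept at 0, so its values of 0.05 with housekeeping and 0.17 with ribosomal protein scaling come only from the shift of the single unstimulated value above 0. With 1 library left out, log2 changes for LPS plus IFNg against no stimulus ran from -1.48 to 1.61 for Adora2b and -2.28 to 1.35 for Adora3. They ran from -0.26 to 0.0393 for P2rx4 and -0.81 to 0.38 for Entpd1. For IL4 against no stimulus they ran from -1.02 to 3.79 for P2ry14. The 3.79 is the IL4 mean itself, because the only control value then left was listed at 0.

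The other pathway genes higher with LPS plus IFNg numbered 4 to 21 against no stimulus (8 in the fit reported) and 9 to 27 against IL4 (13). Calls over all genes ranged from 7 to 123 higher and 0 to 183 lower for IL4 against no stimulus, where only the 2 groups compared gave the fewest. Unknown depth limits statements on genes near 0.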

Other observations

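Of 17 tested genes of the cyclic AMP machinery, 1 was higher and none lower with LPS plus IFNg than without stimulus, with a median log2 difference of -0.62 against -0.04 over all tested genes (3.72% higher and 4.25% lower). Against IL4 1 was higher and 1 lower, with a median of -0.36 against 0.00 (5.91% higher and 6.96% lower). The higher one was Pde4b in both. Pde4b, a phosphodiesterase that breaks down the cyclic AMP that the Adora2a and Adora2b receptors raise, averaged 8.37 ± 0.30 (SD, n = 3) with LPS plus IFNg, 6.08 ± 0.30 (n = 3) with IL4 and 5.95 ± 0.36 (n = 2) unstimulated. Its log2 change was 2.42 against no stimulus (SE 0.33, limma adjusted p = 0.006) and 2.29 against IL4 (SE 0.29, adjusted p = 0.00298), and it passed under all alternatives. Prkar2a, a regulatory subunit of protein kinase A, was the one lower with LPS plus IFNg than with IL4 (log2 difference -1.72, SE 0.26, adjusted p = 0.00609; not with ribosomal protein scaling, 0.503). Of 4 tested genes of nucleotide release, 1 was higher with LPS plus IFNg than without stimulus and than with IL4. This was Panx1, a channel through which cells release ATP, which had 8.49, 7.96 and 8.25 with LPS plus IFNg, 6.14, 6.84 and 6.24 with IL4, and 5.53 and 6.81 unstimulated. It passed against both groups (adjusted p = 0.031 and 0.0221), but these calls were lost without 4 and 5 of the 8 libraries in turn, where the highest adjusted p was 0.118 and 0.0753.

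Of 7 genes of the inflammasome route that P2X7 can feed, 4 were higher and 1 lower with LPS plus IFNg than with IL4, where 5.91% of all tested genes were higher and 6.96% lower. Against no stimulus 2 were higher (Il1b and Il18) and none lower, where 3.72% were higher and 4.25% lower, and the call of Il18 (adjusted p = 0.0469) was lost without any 1 of the 8 libraries, up to 0.18. Il1b, the interleukin 1 beta precursor, had 7.69, 8.64 and 8.80 with LPS plus IFNg. It was listed at 0 in all 3 IL4 libraries and had 0.07 and 0 unstimulated. The limma adjusted p was 0.000558 against IL4 and 0.00179 against no stimulus. Its IL4 values had an SD of 0, so the p-value against IL4 measures no spread among those libraries. Pycard, the adaptor ASC, was the lower one, at 6.59 ± 0.66 (SD, n = 3) with LPS plus IFNg, 8.49 ± 0.07 (n = 3) with IL4 and 7.38 ± 0.08 (n = 2) unstimulated (log2 difference from IL4 -1.89, adjusted p = 0.0106; not with ribosomal protein scaling, 0.36). Casp1 and Nlrp3 were higher than with IL4 by 2.73 and 1.77 (adjusted p = 0.0191 and 0.0369) and Il18 by 2.29 (adjusted p = 0.0387); without 1 library the calls of Casp1, Nlrp3 and Il18 were lost in 1, 6 and 8 of the 8 cases. P2rx7 itself had its lowest values in the LPS plus IFNg libraries, but neither difference passed (limma adjusted p = 0.114 against no stimulus and 0.239 against IL4). Both differences turned positive with ribosomal protein scaling (0.23 and 0.73).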
